A study of Mus musculus with 23 samples.

Results

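Known targets of p53, 10 of the 19215 entries in the table of small intestine RNA, were followed in mice that had all received the alkylating drug busulfan. These genes were chosen by name (Cdkn1a, Mdm2, Bax, Bbc3, Trp53inp1, Ccng1, Phlda3, Sesn2, Eda2r and Gdf15) and matched to the table by NCBI Gene number, and all 10 were found. No mouse in the series went without busulfan, so only differences after the drug can be described.

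All mice were ICR males and received 1 injection of busulfan at 40 mg/kg. The Sa group was then given saline. The other groups received gut microbiota as a transplant (FMT), which the methods describe as luminal contents of the small intestine, pooled within a donor group. The Con-FMT group received microbiota from donors dosed with vehicle. The A10-FMT and A100-FMT groups received microbiota from donors dosed with alginate oligosaccharides (AOS) at 10 or 100 mg/kg. Each treatment was present in 2 sets, coded in the titles without a stated meaning and called set 1 and set 2 here, which gave 8 groups of 3 libraries, except Sa in set 1 with 2. According to the methods, recipients were injected at 3 weeks of age, were dosed with microbiota daily for 1 week and were killed at 5 weeks of age. The labels do not say whether this schedule is that of set 1, set 2 or both. Pooled donors mean that each FMT group stands for 1 pool rather than for separate donor animals, and p-values measure the spread between recipient libraries only.

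p53, encoded by Trp53, is a transcription factor that accumulates after DNA damage and binds a motif made of a repeated half-site near its targets. Busulfan crosslinks DNA, and the crypts of the small intestine, where cells divide, are among the tissues in which p53 responds most readily to such damage. Its targets stop the cell cycle (Cdkn1a), open the mitochondrial route to cell death (Bax, Bbc3), restrain p53 itself in a feedback loop (Mdm2, Ccng1), or serve stress defence and signalling to other cells (Sesn2, Trp53inp1, Phlda3, Eda2r, Gdf15).

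The promoters show which members carry a recognisable p53 motif close to their start, and those of the best matches, Cdkn1a and Ccng1, are printed below. Windows of 300 bases (250 before and 50 after the start) were available for 9 of the 10 members in RefSeq (build GRCm38.p6), and none was given for Trp53inp1. The p53 half-site consensus of 10 bases, searched as its palindrome and so on both strands at once, was present in 8.36% of all 32851 windows, so that a single match is common. A full site, taken as 2 half-sites side by side over 20 bases with at most 1 base outside the consensus, was present in 22 windows (0.067%), of which 1 belonged to Cdkn1a and 1 to Ccng1. The capitals below mark that full site, with 1 base outside the consensus in each. It began 51 bases before the more upstream start of Cdkn1a and 195 bases before the start of Ccng1.
Cdkn1a, chr17:29090729-29090978, plus strand: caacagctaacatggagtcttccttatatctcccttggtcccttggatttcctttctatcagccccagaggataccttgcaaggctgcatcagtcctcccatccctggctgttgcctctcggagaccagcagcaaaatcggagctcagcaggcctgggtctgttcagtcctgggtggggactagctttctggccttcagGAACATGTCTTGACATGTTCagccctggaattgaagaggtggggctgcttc
Ccng1, chr11:40755287-40755536, minus strand: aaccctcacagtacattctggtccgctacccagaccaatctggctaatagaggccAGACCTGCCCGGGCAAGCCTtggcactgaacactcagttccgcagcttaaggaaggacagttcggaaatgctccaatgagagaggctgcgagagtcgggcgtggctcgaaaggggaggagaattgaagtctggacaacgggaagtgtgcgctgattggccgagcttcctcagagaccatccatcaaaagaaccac

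Single half-sites were found in the windows of Bax (AGGCAAGCTT, 201 bases before the start) and Mdm2 (GAACTTGCCT, 186 bases before the start). The windows of Sesn2, Bbc3, Gdf15, Phlda3 and Eda2r, and a second start of Cdkn1a, held no exact half-site, which says only that these letters were not in these windows. A match is a description of sequence, and no binding was measured.

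The values were FPKM (fragments mapped to a transcript, divided by its length and by all mapped fragments of the library), which are per length and so can be compared between genes. Bax, a pore-forming protein of the outer mitochondrial membrane, had the highest mean level over the 23 libraries at 60.8 FPKM, above 91.7% of all entries. Ccng1 (cyclin G1) at 22.1, Cdkn1a (p21, an inhibitor of cyclin-dependent kinases) at 15.3 and Mdm2 (the ubiquitin ligase that marks p53 for degradation) at 13.7 FPKM formed a middle group. Sesn2, a stress protein that restrains mTORC1, had 3.56 FPKM, Bbc3 (PUMA, an activator of Bax) 2.29 and Trp53inp1 1.10. Gdf15 (a secreted stress cytokine), Phlda3 (an inhibitor of Akt) and Eda2r (a receptor of the TNF family) were low, at 0.617, 0.18 and 0.040 FPKM.

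A filter on a mean of 1 FPKM left 11337 genes for testing, and 7 of the 10 members passed it. The 3 low members ranged from 0.36 to 0.97 FPKM (Gdf15), 0.03 to 0.37 (Phlda3) and 0.01 to 0.11 (Eda2r) over all libraries. Their levels were not tested with the others, and none was called in any comparison when the filter was dropped. Counts were not given, so the depth behind each value is unknown.

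**Figure D1:**
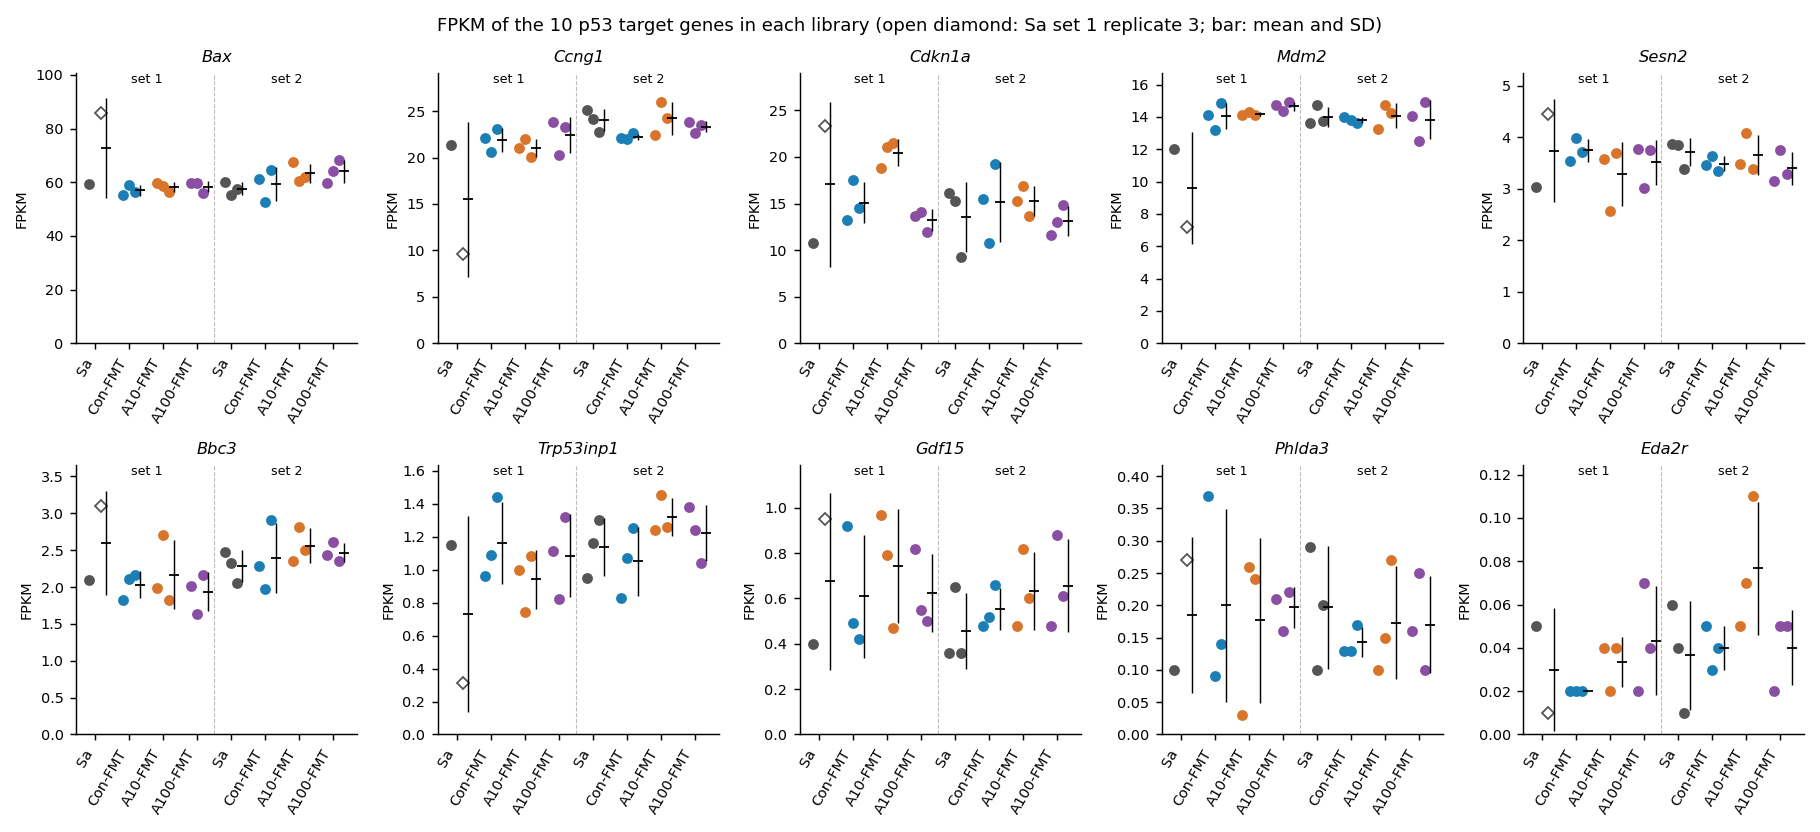
FPKM of the 10 members (1 panel each, ordered by mean level, linear axes from 0) in each of the 23 libraries, by treatment and set; points are libraries, bars are the group mean and SD, and the open diamond is Sa set 1 replicate 3. The diamond lies well apart from the other points for Bax, Ccng1, Mdm2 and Trp53inp1, and just above them for Cdkn1a, Sesn2 and Bbc3. Mdm2 otherwise stays between 12.03 and 14.9 FPKM.

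One library stood apart. Sa set 1 replicate 3 lay outside the range of the other 22 libraries for all 7 tested members and for 63.5% of all tested genes, against 2.75 to 17.0% for the others. Its title and its description name different columns of the table. The column its title names was used here, and the column its description names was tried in its place.

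In that library Cdkn1a (23.4 against 9.21 to 21.5 FPKM in the other 22), Bax (85.8 against 52.5 to 68.3), Bbc3 (3.10 against 1.64 to 2.91) and Sesn2 (4.45 against 2.57 to 4.09) were above all others. Mdm2 (7.17 against 12.03 to 14.9 FPKM), Ccng1 (9.60 against 20.1 to 26.0) and Trp53inp1 (0.31 against 0.74 to 1.45) were below all others. Whether the split followed the members' roles was not tested. The 4 members that were high had transcripts of 54.4 to 65.2% GC and the 3 that were low had 38.8 to 46.2%. Over all tested genes the deviation of that library from the median rose with GC content, with a Spearman rho across genes of 0.690, against -0.221 to 0.220 in the other libraries and -0.0867 in the column the description names. Genes are not independent replicates, and the part of GC content in the members' values was not tested beyond the adjusted fits reported with the alternatives.

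**Figure D2:**
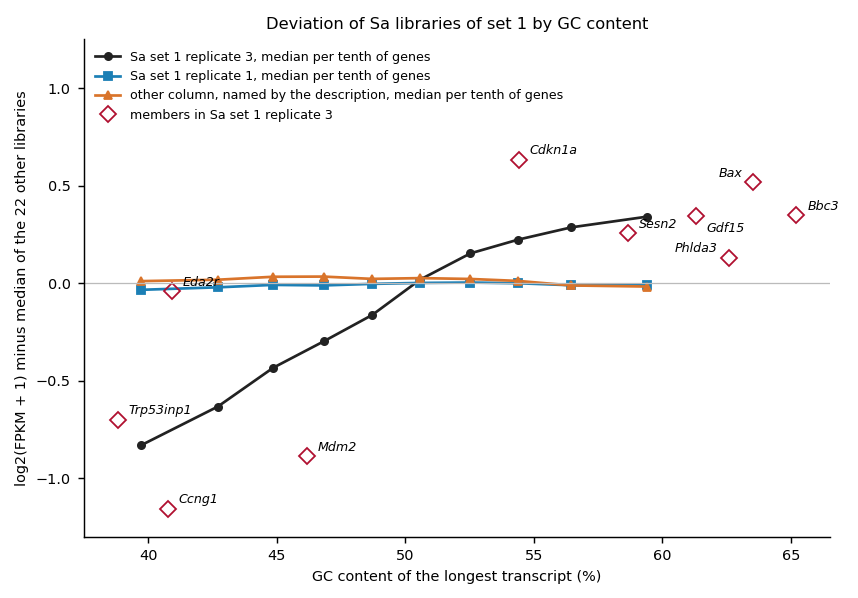
Difference of a library from the median of the 22 other libraries, in log2(FPKM + 1), against the GC content of the longest transcript (%); lines join medians of 10 equal bins of the tested genes for Sa set 1 replicate 3, Sa set 1 replicate 1 and the column the description names, and open diamonds are the 10 members in Sa set 1 replicate 3. The line of replicate 3 climbs from -0.83 to 0.34 while the other lines stay near 0, and the tested members of high GC lie above 0 and those of low GC below it.

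The labelled tissue was checked against its markers. Epithelial genes dominated, led by Apoa1 (mean of 2341 FPKM), Anpep and Fabp2 of enterocytes, Zg16 (3001 FPKM), Tff3 and Agr2 of goblet cells, and Defa24 (5227 FPKM), Defa17 and Lyz1 of Paneth cells. Crypt stem cells were represented by Olfm4 (416 FPKM), Smoc2 and Axin2, and enteroendocrine cells by Gip (87.0 FPKM), Sct and Chgb. None of the 8 fibroblast and endothelial markers in the table reached the filter, and 2 of 7 smooth muscle markers did, Mylk (66.9 FPKM, 42.5 to 78.3 over the libraries) and Tagln (1.24 FPKM), while Acta2, Myh11 and Des stayed at or below 0.09 FPKM in every library. Of 7 B cell and plasma cell genes 1 passed, Cd79b (1.33 FPKM), and Ms4a1 and Pax5 were among those under the filter. Of 6 myeloid genes 2 passed, Cd14 (59.2 FPKM) and Itgam (5.04 FPKM), and of 8 T cell genes 5 passed, led by Gzma (48.9 FPKM), Gzmb and Cd3g. The libraries held RNA of mixed cell types, in which fewer cells of a type and less RNA per cell cannot be told apart.

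Mdm2, Ccng1 and Bax were the members that differed between FMT and Sa in set 1. Mdm2 was at 12.03 and 7.17 FPKM in the 2 Sa libraries. It was at 14.1, 13.2 and 14.8 FPKM with Con-FMT, 14.1, 14.3 and 14.1 with A10-FMT, and 14.7, 14.4 and 14.9 with A100-FMT. Each of these 9 FMT libraries was above both Sa libraries.

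Mdm2 rose compared with Sa by 0.54 ± 0.12 (SE) on the log2(FPKM + 1) scale in Con-FMT, with an adjusted p of 0.026 by limma. The rise was 0.56 ± 0.12 in A10-FMT (adjusted p = 0.0036) and 0.60 ± 0.12 in A100-FMT (adjusted p = 0.0058). With GC content and length adjusted, the differences of Mdm2 were 0.40, 0.50 and 0.47. Each was still called (adjusted p = 0.026, 0.00048 and 0.0026 by limma). These 3 comparisons share the same 2 Sa libraries. Groups that did not overlap, with FMT higher, were seen for 18.8, 13.9 and 22% of all tested genes in the 3 comparisons.

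Ccng1, a cyclin that recruits a phosphatase to Mdm2, was at 21.4 and 9.60 FPKM in Sa. The FMT libraries of set 1 held 20.1 to 23.8 FPKM and so overlapped with the higher Sa library. Ccng1 rose by 0.57 ± 0.18 in Con-FMT (adjusted p = 0.033 by limma), 0.52 ± 0.18 in A10-FMT (adjusted p = 0.037) and 0.60 ± 0.18 in A100-FMT (adjusted p = 0.021). With GC content and length adjusted, the differences of Ccng1 were 0.23 in Con-FMT, which was no longer called (adjusted p = 0.084), 0.26 in A10-FMT (adjusted p = 0.025) and 0.25 in A100-FMT (adjusted p = 0.036).

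Bax was at 59.5 and 85.8 FPKM in Sa and at 55.3 to 59.7 FPKM in the 9 FMT libraries of set 1. It fell by 0.32 ± 0.11 on the log2 scale in Con-FMT (adjusted p = 0.041 by limma), where no library overlapped with Sa, as was so for 13.5% of tested genes with Sa higher. It fell by 0.29 ± 0.11 in A10-FMT (adjusted p = 0.0499), and in A100-FMT the difference of -0.29 ± 0.11 missed the threshold (adjusted p = 0.051). With GC content and length adjusted, the sign of Bax turned, to 0.022 in Con-FMT and 0.0054 in A10-FMT (adjusted p = 0.86 and 0.96), and with the replicate block alone both calls were lost (adjusted p = 0.053 and 0.070).

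In all, 3 of the 7 tested members were called in Con-FMT against Sa, 3 in A10-FMT and 2 in A100-FMT, beside 26.9, 32 and 35.2% of all tested genes. Over all tested genes, 17.7, 13.6 and 22% were called higher than Sa and 9.17, 18.4 and 13.1% lower. The members' share was thus near that of genes in general. The other 4 members were not called in any of the 3 comparisons. The median log2 difference of the 7 was 0.02, 0.20 and -0.06, against 0.05, -0.01 and 0.05 over all tested genes.

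All 8 of these calls rested on Sa set 1 replicate 3. Without it, 0 of the 7 members were called in any of the 3 comparisons, and the share of all genes called by limma fell to 0.00881, 8.12 and 0.238%; that fit rests on the lone Sa library of set 1 and on the spread of the other groups. At an unadjusted p under 0.05, Mdm2 still passed in all 3 comparisons without it, with differences of 0.21, 0.22 and 0.27 ± 0.08 (adjusted p = 0.72, 0.088 and 0.14), and Cdkn1a passed in A10-FMT (0.86 ± 0.27, adjusted p = 0.056). Ccng1 was then at 0.03, -0.02 and 0.06, and Bax at -0.06, -0.03 and -0.03. With the column the description names, 1 call was made in these comparisons, that of Cdkn1a in A10-FMT (0.61, adjusted p = 0.039). Without the other Sa library of set 1, replicate 1, the differences rest on replicate 3 alone as Sa. They were then 0.88, 0.89 and 0.94 for Mdm2, 1.11, 1.06 and 1.14 for Ccng1, and -0.58, -0.55 and -0.55 for Bax.

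**Figure D3:**
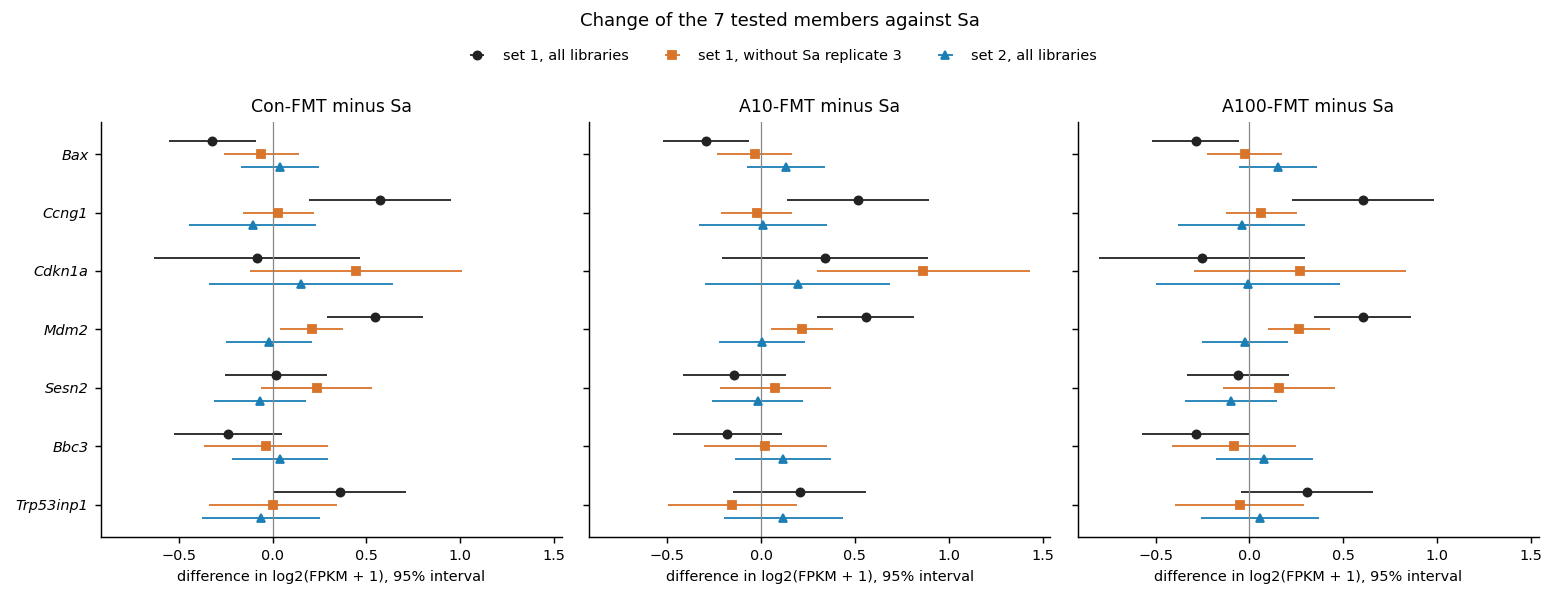
Difference in log2(FPKM + 1) from Sa of the 7 tested members (rows) in Con-FMT, A10-FMT and A100-FMT (panels), with 95% intervals of each comparison not adjusted over genes; circles are set 1 with all libraries, squares set 1 without Sa replicate 3, triangles set 2. Mdm2, Ccng1 and Bax lie off 0 in set 1 only for the circles, apart from smaller differences of Mdm2 (0.21 to 0.27) for the squares.

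In set 2, where Sa had 3 libraries and none stood apart in this way, the same members were close to level. Mdm2 was at 13.6, 14.7 and 13.7 FPKM in Sa, 13.97, 13.8 and 13.6 in Con-FMT, 13.2, 14.8 and 14.2 in A10-FMT, and 14.03, 12.5 and 14.9 in A100-FMT, so that all groups overlapped. None of the 7 members was called in Con-FMT, A10-FMT or A100-FMT against Sa, beside 0.0353, 0.423 and 0.0353% of all tested genes, and none passed at an unadjusted p under 0.05.

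The intervals in set 2 bound what could have been missed, and of the tested members they were widest for Cdkn1a. For Cdkn1a the 95% interval on the log2 scale was -0.34 to 0.64 in Con-FMT, -0.30 to 0.69 in A10-FMT and -0.50 to 0.48 in A100-FMT. For Mdm2 the 95% interval of the log2 difference from Sa was -0.25 to 0.21 in Con-FMT, -0.22 to 0.23 in A10-FMT and -0.25 to 0.21 in A100-FMT. For Bax it was -0.07 to 0.34 in A10-FMT and -0.06 to 0.36 in A100-FMT. Bax was higher in each A10-FMT library (60.7 to 67.4 FPKM) than in each Sa library of set 2 (55.2 to 60.1), as were 19.2% of all tested genes, with an adjusted p of 0.59. Ccng1 was lower in each Con-FMT library (21.99 to 22.6 FPKM) than in each Sa library of set 2 (22.8 to 25.2), as were 10.9% of tested genes, and it was higher in each A100-FMT library (22.7 to 23.8 FPKM) than in each Con-FMT library, as were 16.1%. Neither was called, with log2 differences of -0.11 and 0.06 ± 0.16.

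The response to FMT was set against itself in the 2 sets. The difference of A10-FMT from Sa was lower in set 2 than in set 1 by 0.55 ± 0.16 for Mdm2 (a contrast of -0.55, adjusted p = 0.019 by limma) and higher by 0.43 ± 0.15 for Bax (adjusted p = 0.038). For A100-FMT the contrasts were -0.62 ± 0.16 for Mdm2 (adjusted p = 0.016) and 0.44 ± 0.15 for Bax (adjusted p = 0.038). These 4 calls of the members compare with 28.4% of all tested genes in A10-FMT and 26.8% in A100-FMT, and for Con-FMT 0 of 7 members and 0.00882% of tested genes were called. Without Sa set 1 replicate 3 none of the 4 was called. With GC content and length adjusted, those of Mdm2 were kept (-0.53 and -0.52) and those of Bax were lost (0.072 and -0.0020).

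With both sets averaged, no member was called against Sa in Con-FMT, A10-FMT or A100-FMT (0.75, 0.132 and 0.891% of all tested genes). At an unadjusted p under 0.05, 1, 2 and 2 of the 7 passed in these comparisons. Mdm2 had the lowest adjusted p of the members in each of them, at 0.15, 0.12 and 0.073.

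Between the libraries other than Sa set 1 replicate 3, the members differed in how much they varied. Mdm2, Bax and Ccng1 were the steadiest, with a ratio of highest to lowest of 1.24, 1.30 and 1.29 and a coefficient of variation of 5.39, 6.54 and 6.72% over 22 libraries. Cdkn1a varied most of the tested members, with a ratio of 2.34 and a coefficient of variation of 21.98%. Within groups its SD on the log2 scale was 0.25, against a median of 0.093 over all tested genes, and 8.38% of tested genes exceeded it. Sesn2, Bbc3 and Trp53inp1 lay between, with coefficients of 10.2, 14.7 and 17.4%, and the low members Gdf15, Phlda3 and Eda2r had larger ones of 31.1, 46.1 and 54.5%.

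In set 1 Cdkn1a, which arrests the cell cycle, was at 10.8 and 23.4 FPKM in Sa, at 13.3, 17.5 and 14.6 in Con-FMT, at 18.8, 21.1 and 21.5 in A10-FMT and at 13.7, 14.1 and 11.9 in A100-FMT. The 3 A10-FMT libraries were above every Con-FMT library of set 1, as was so for 12.2% of all tested genes, and between the 2 Sa libraries.

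In set 2 it was at 16.2, 15.3 and 9.21 FPKM in Sa, 15.5, 10.7 and 19.3 in Con-FMT, 15.2, 16.9 and 13.7 in A10-FMT and 11.6, 13.0 and 14.9 in A100-FMT. Those groups overlapped, except that A10-FMT and A100-FMT shared only the stretch from 13.7 to 14.9 FPKM.

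By group mean Cdkn1a ran from 20.5 ± 1.48 FPKM (SD, n = 3) in A10-FMT of set 1 down to 13.2 ± 1.17 in A100-FMT of set 1 and 13.1 ± 1.64 in A100-FMT of set 2. The means between these were 17.1 ± 8.90 (n = 2) for Sa of set 1, 15.3 ± 1.62 for A10-FMT of set 2, 15.2 ± 4.28 and 15.1 ± 2.18 for Con-FMT of set 2 and set 1, and 13.6 ± 3.78 for Sa of set 2. Neighbours in this order differed by less than the larger of their SDs.

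The comparison of A10-FMT with Con-FMT asks what the donors' AOS added to the transplant. Cdkn1a was higher in A10-FMT of set 1 in 3 of 3 libraries, by 0.42 ± 0.23 on the log2 scale, and was not called (95% interval -0.07 to 0.91, adjusted p = 0.23 by limma). Of all tested genes 16.7% were called, 5.2% higher and 11.5% lower. When those groups were fitted alone, Cdkn1a was called (adjusted p = 0.042 by limma). The 16.7% is that of the fit to all 8 groups, and the share called with the groups alone is not reported here. In set 2 the difference was 0.04 ± 0.23. None of the other 6 tested members was called in A10-FMT or A100-FMT against Con-FMT in either set or with both sets averaged, beside 0.406% of tested genes in A100-FMT of set 1, 0.379 and 0% in set 2, and 0 and 0.123% with both sets averaged. At an unadjusted p under 0.05, 0 of 7 members passed in any of these comparisons.

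Marker genes of other cell states also differed between these groups. In A10-FMT of set 1, the 12 enterocyte markers had a mean log2 level of 9.46 to 9.67, above the 8.53 to 9.34 of all other libraries, and 8 of 12 were called higher than in Con-FMT with 0 lower. The 25 crypt proliferation genes had a mean of 4.69 to 4.78, below the 4.88 to 5.22 of all others, and 17 of 25 were called lower with 0 higher. These shares stand beside the 5.2% higher and 11.5% lower of all tested genes. In A10-FMT of set 2, where Cdkn1a differed from Con-FMT by 0.04, the enterocyte markers had a mean log2 level of 8.53 to 8.84 against 8.96 to 9.29 in Con-FMT, and 0 of 12 were called higher and 2 lower. The crypt proliferation genes were at 5.13 to 5.22 there against 4.95 to 5.10 in Con-FMT, with none of 25 called. Pcna (156 FPKM), Birc5 and Cdc20 were the highest of that list. Their part in the Cdkn1a values was not tested.

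**Figure D4:**
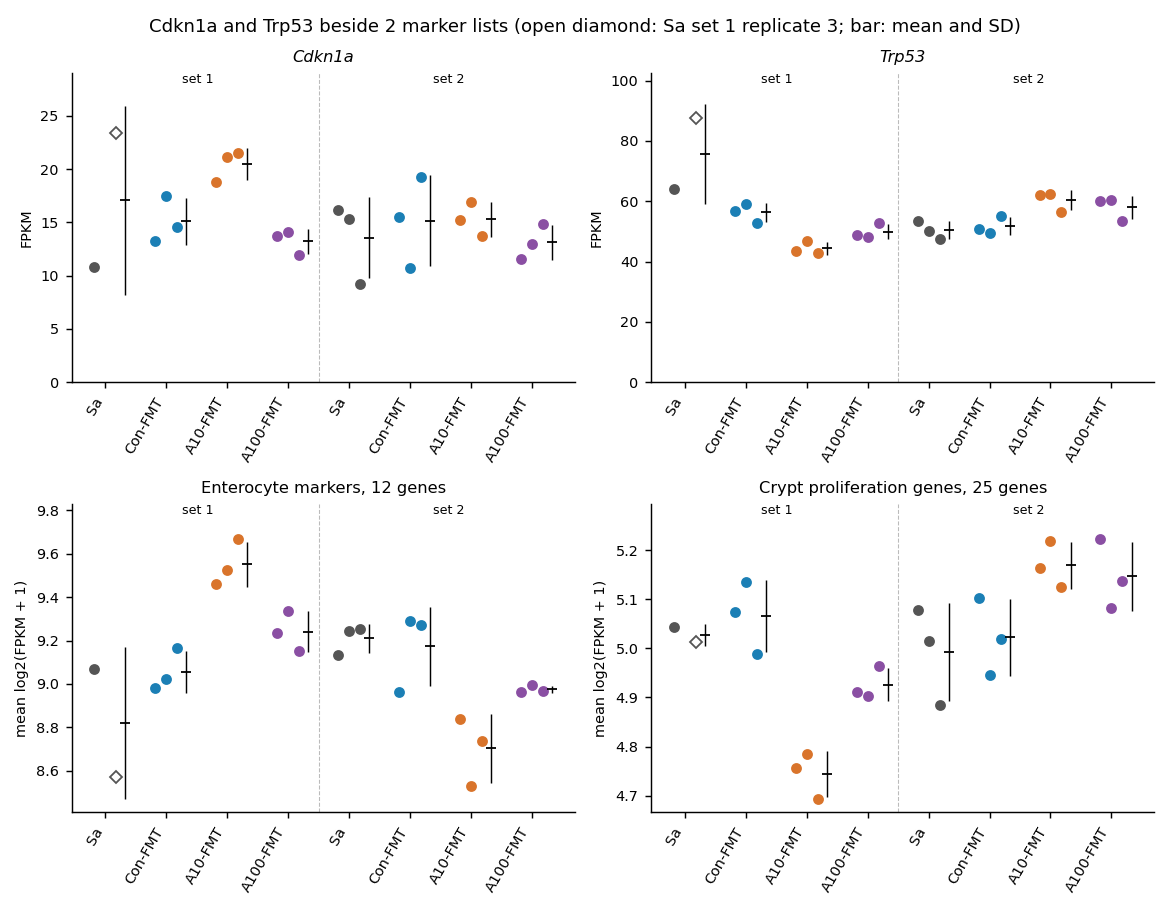
Cdkn1a and Trp53 in FPKM (top) and the mean log2(FPKM + 1) of 12 enterocyte markers and 25 crypt proliferation genes (bottom, axes not from 0) in each library by treatment and set; bars are the group mean and SD, and the open diamond is Sa set 1 replicate 3. The 3 A10-FMT libraries of set 1 are the lowest of all for Trp53 and for proliferation, the highest for enterocyte markers, and at 18.8 to 21.5 FPKM for Cdkn1a.

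Trp53, which encodes p53, was itself well expressed, at a mean of 55.0 FPKM. In set 1 it was at 64.1 and 87.5 FPKM in Sa, 56.8, 59.2 and 52.9 in Con-FMT, 43.6, 46.8 and 42.8 in A10-FMT, and 48.9, 48.3 and 52.8 in A100-FMT. A10-FMT was thus the lowest group and Sa the highest, with no overlap between them, as was so for 23.5% of all tested genes with Sa higher.

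Trp53 fell by 0.33 ± 0.09 on the log2 scale in A10-FMT compared with Con-FMT in set 1 (adjusted p = 0.017 by limma), a comparison that holds no Sa library. That call was kept in 31 of 35 alternative settings; it was lost with trimmed-mean scaling (-0.26, adjusted p = 0.070) and without Con-FMT replicate 1 or 2 or A10-FMT replicate 3 of set 1 (-0.33, -0.30 and -0.31, adjusted p = 0.057, 0.070 and 0.068). Compared with Sa it fell by 0.41, 0.74 and 0.58 ± 0.10 in Con-FMT, A10-FMT and A100-FMT (adjusted p = 0.026, 0.00051 and 0.0031). Without Sa set 1 replicate 3 the difference of A10-FMT was still called (-0.52, adjusted p = 0.0096), and those of Con-FMT (-0.18, adjusted p = 0.75) and A100-FMT (-0.35, adjusted p = 0.088) were not. In set 2 it was at 47.6 to 53.6 FPKM in Sa and 56.6 to 62.4 in A10-FMT, which did not overlap, as for 19.2% of all tested genes with A10-FMT higher, with a difference of 0.25 ± 0.09 and an adjusted p of 0.21. Con-FMT of set 2 was at 49.5 to 54.97 FPKM, below each A10-FMT library of that set, the opposite direction to set 1. That was so for 17% of all tested genes, and the test of this difference is not reported here.

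Mdm4, the partner of Mdm2 in restraining p53, was at 9.15 and 3.24 FPKM in Sa of set 1 and at 8.60 to 14.5 in the FMT libraries of that set. It was called higher than Sa in Con-FMT (0.75), A10-FMT (0.64) and A100-FMT (1.14, each ± 0.21). Without replicate 3 it was not called in any of them, at 0.12, 0.01 and 0.51 (adjusted p = 0.86, 0.96 and 0.053). In set 2 its difference from Sa lay between -0.17 and 0.01.

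Of the list of 20 genes of p53 and its regulators, 17 were tested. Of all tested genes, 17.7, 13.6 and 22% were called higher than Sa in Con-FMT, A10-FMT and A100-FMT of set 1. The shares called lower were 9.17, 18.4 and 13.1%. Of the list, 8 were higher and 1 lower than Sa in Con-FMT of set 1, 1 and 2 in A10-FMT, and 9 and 1 in A100-FMT. Without replicate 3 these counts were 0 and 0, 0 and 2, and 0 and 0. In set 2 and with both sets averaged none was called. The highest of the list after Trp53 were Usp7 (34.3 FPKM, which removes ubiquitin from Mdm2 and p53) and Kat5 (21.5 FPKM, an acetyltransferase). In A10-FMT against Con-FMT of set 1, 0 were higher and 3 lower, beside 5.2 and 11.5% of all tested genes.

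A wider list of 50 other p53 targets had 49 genes in the table and 39 tested. The highest were Sfn (134 FPKM, 14-3-3 sigma of the cell cycle arrest), Perp (106 FPKM, a desmosome component) and Ei24 (52.7 FPKM). Against Sa in set 1, 3 were higher and 1 lower in Con-FMT, 13 and 7 in A10-FMT, and 10 and 4 in A100-FMT. The shares of all tested genes there were 17.7 and 9.17%, 13.6 and 18.4%, and 22 and 13.1%. Without replicate 3, the counts were 0 and 0, 4 and 2, and 0 and 0. In set 2 the only call was 1 gene lower in A10-FMT, and with both sets averaged none was made. The median log2 difference of the 39 lay between -0.02 and 0.11 over all comparisons of FMT with Sa, against -0.01 to 0.05 over all tested genes. In A10-FMT against Con-FMT of set 1, 7 were higher and 2 lower, beside 5.2 and 11.5% of all tested genes.

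The remaining lists around the pathway were read the same way. Against Sa in set 1, 17.7, 13.6 and 22% of all tested genes were called higher in Con-FMT, A10-FMT and A100-FMT. The shares called lower were 9.17, 18.4 and 13.1%. Of 18 tested genes of the BCL2 family and caspases, 5 rose and 2 fell in Con-FMT of set 1 against Sa, 7 and 3 in A10-FMT, and 7 and 3 in A100-FMT, with none called in set 2 or with both sets averaged. Among its highest genes were Bak1 (182 FPKM, the relative of Bax in the mitochondrial membrane) and Casp6 (131 FPKM). Of 24 tested genes of DNA crosslink repair, the damage that busulfan makes, 5 rose and 1 fell in Con-FMT, 1 and 7 in A10-FMT, and 4 and 2 in A100-FMT of set 1, and none was called in set 2. Brip1 (11.4 FPKM) and Fance (7.6 FPKM) were among the highest of these. Without replicate 3, A10-FMT of set 1 kept 2 higher and 2 lower in the first list and 0 and 2 in the second, and the other FMT groups had no call in either.

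Of 18 tested genes of the ATF4 stress response, which also induces Sesn2, Atf4 itself was the highest (135 FPKM), followed by Aldh18a1 (134 FPKM) and Slc3a2 (119 FPKM). Atf3, a stress-induced transcription factor, was the only gene of the lists around p53 called with both sets averaged. It was at 4.15 to 7.88 FPKM in the 5 Sa libraries. It was at 8.18 to 11.1 FPKM in the 6 Con-FMT libraries, 5.68 to 13.5 FPKM in A10-FMT and 6.13 to 9.86 in A100-FMT, and the ranges of A10-FMT and A100-FMT overlapped with that of Sa.

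Atf3 rose with both sets averaged by 0.69 ± 0.11 in Con-FMT (adjusted p = 0.0046 by limma), 0.66 ± 0.11 in A10-FMT (adjusted p = 0.028) and 0.48 ± 0.11 in A100-FMT (adjusted p = 0.040), on shared Sa libraries. By set, the differences from Sa were 0.89, 1.28 and 0.86 ± 0.16 in set 1 (adjusted p = 0.021, 0.00048 and 0.0039) and 0.49, 0.05 and 0.10 ± 0.14 in set 2, where none was called (adjusted p = 0.39, 0.94 and 0.81). The averages of A10-FMT and A100-FMT thus rest mostly on set 1. Over 35 alternative settings the call was kept in 34, 26 and 11, and the adjusted p ranged up to 0.88, 0.97 and 0.70, each with array quality weights. Without Sa set 1 replicate 3 the differences of A10-FMT (0.59, adjusted p = 0.22) and A100-FMT (0.41, adjusted p = 0.23) were not called. That of A10-FMT was also lost without any 1 of its set 1 libraries, its set 2 replicate 1 or 3, or Sa set 2 replicate 2 (adjusted p from 0.053 to 0.082). Atf3 also belongs to the immediate early genes, of which 7 were tested and Ier2 (50.05 FPKM), Junb and Jun were the highest, and no other gene of that list was called with both sets averaged. Of the cell type markers, some fell in A100-FMT against Con-FMT with both sets averaged (adjusted p from 0.0086 to 0.042 by limma), beside 0.123% of all tested genes called. These were Ang4 (-1.21) and Itln1 (-0.71) of 6 Paneth cell markers, and Chgb (-0.49), Cck (-0.46) and Chga (-0.31) of 7 enteroendocrine markers. The other markers of these 2 lists were not called, and alternative settings for them are not reported here.

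Between the sets, 7 genes are too few for their count of calls to be told apart from the share of all tested genes. In set 2 against set 1, averaged over the 4 treatments, 0 of 7 members were called beside 13.3% of all tested genes, with 1 of 7 at an unadjusted p under 0.05. That was Ccng1, higher by 0.24 ± 0.08 (adjusted p = 0.057), for which the set 1 mean includes the 9.60 FPKM of Sa replicate 3. Cdkn1a was at -0.17 ± 0.12 and Bax at 0.00 ± 0.05.

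The members were also compared with each other over libraries, as a description of 23 libraries that share groups, sets and processing. Mdm2 and Ccng1 followed each other with a Pearson coefficient of 0.91 over 23 libraries, which was 0.34 over the 22 without Sa set 1 replicate 3, and Bax and Mdm2 went from -0.77 to -0.23. Bax and its activator Bbc3 had 0.63 and 0.50, and Ccng1 and Bbc3 went from -0.22 to 0.63. The coefficients of Cdkn1a with the other tested members ran from -0.35 (Trp53inp1) to 0.26 (Bbc3) over the 22 libraries.

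The genes most like each of the 4 highest members, over log2(FPKM + 1) in the same 23 libraries, were named by the same coefficient. For Cdkn1a these included Metrnl (0.73) and Urgcp (0.73), and the coefficients over 22 libraries were 0.68 and 0.71. For Bax they were Taldo1 (0.93, and 0.84 over 22), Comtd1 (0.91 and 0.78) and Jpt1 (0.91 and 0.79). For Mdm2 they were Tiparp (0.96 and 0.68), Herc4 (0.96 and 0.66) and Pafah1b1 (0.96 and 0.67). For Ccng1 they were Ppp4r3b (0.98 and 0.82), Gmfb (0.98 and 0.82) and Washc4 (0.97 and 0.79). When chosen over the 22 libraries, none of the genes named for Mdm2 and Ccng1 stayed among the most alike. Mier3 (0.77), Eepd1 (0.70) and Birc2 (0.70) then led for Mdm2, and Lin7c (0.89), Trim2 (0.86) and Zdhhc21 (0.83) for Ccng1. Taldo1 stayed for Bax, and Metrnl and Urgcp for Cdkn1a.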

How the data were processed

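RNA of the small intestine of 23 mice was sequenced on an Illumina HiSeq instrument, and per the labels the mm10 build was used; the aligner and the counting program are not given in the sources used here. The authors deposited 1 table of FPKM values per gene, rounded to 2 decimals, without counts. Depth is therefore unknown, and the FPKM of a library summed to 556466 to 667957. NCBI Gene numbers (17842 of 19215 entries) were matched to symbols in a GRCm38.p6 table (17725 matched), and GC content and length came from GENCODE transcripts. All 24 columns matched a title or a description, and 23 were used.

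limma 3.58.1 in R 4.3.3 was fitted to log2(FPKM + 1) with 1 mean for each of 8 groups and an intensity trend, keeping genes whose mean over the libraries reached 1 FPKM, and p-values were adjusted by Benjamini-Hochberg over all 11337 genes, with a threshold of 0.05. This scale understates the change of low genes. Tests were two-sided, and intervals are 95%. The fit was tested on simulated data. The members and lists were chosen with earlier results of these data known. Text names all members, Trp53 and Mdm4, the 3 highest tested genes of the other lists and each list gene called with both sets averaged, and a few genes that this rule names are not reported here. Replicate numbers did not pair the libraries (closing section). Alternatives were another pseudocount, filters, scalings, fits, weights, a replicate block, GC and length adjustment, the other column of 1 library, and leaving out each library. Promoters were read from RefSeq windows. Plots were drawn with matplotlib 3.10.9.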

Additional observations from a re-analysis of the deposited data

Results flagged for a closer look

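Of the members, 4 differences in the effect of FMT between the sets passed the test of that difference. In A10-FMT and in A100-FMT, 1 of the 7 tested members was called higher and 1 lower. Of all tested genes 28.4% and 26.8% were called, so the members' share was near that of genes in general. The effect of A10-FMT against Sa was different in set 2 from set 1 by -0.55 for Mdm2 and 0.43 for Bax on the log2 scale, and that of A100-FMT by -0.62 for Mdm2 and 0.44 for Bax. Both comparisons share the Sa libraries of each set, and none of the 4 was called without Sa set 1 replicate 3.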

How the results depend on the processing

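Calls of the members against Sa in set 1, 8 as reported, were 4 with no filter on low values, 0 when the groups were compared alone, 0 with array quality weights, 1 with the column the description names, 5 with GC content and length adjusted, and 5 with that and the replicate block. The 4 calls of a difference between sets were 2, 0, 0 and 0 under the first 4 of these settings and 2 with GC content and length adjusted and the replicate block. The comparison with Con-FMT in set 1 gave 1 call (Cdkn1a) with groups alone, the comparison with Sa over both sets gave 1 (Mdm2) with GC content and length adjusted, and set 2 against set 1 gave 1 (Bbc3) with the column the description names, against 0 as reported. Leaving out 1 library gave 0 to 17 calls against Sa in set 1 (4 without Con-FMT set 1 replicate 1 or 3), 0 to 14 for the difference between sets, 0 to 12 over both sets and 0 to 4 for set 2 against set 1.

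The sign of Bax against Sa in set 1 turned with GC content and length adjusted, to 0.022 in Con-FMT and 0.0054 in A10-FMT, and with the replicate block added to 0.042 and 0.025. Its A100-FMT difference between sets turned to -0.0020 and -0.022 under the same settings. Ccng1 turned with the column the description names, to -0.020 in Con-FMT and -0.074 in A10-FMT, and to -0.023 in A10-FMT without Sa set 1 replicate 3, where leaving out 1 library gave -0.023 to 1.06 for it. The cause was not tested.

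With the replicate block alone, 6 of 8 calls were kept in count in set 1 (the Bax calls were lost) and 3 of 4 between sets, and the other comparisons stayed at 0. Libraries with the same number did not deviate together (r from -0.352 to 0.319 over 33 pairs, and from -0.352 to 0.371 over 66 pairs with other numbers), so the numbers do not pair the libraries. The table holds no counts, which limits what can be said of the 3 lowest members.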
